A study of Homo sapiens with 12 samples.

Results

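The nucleolar ribosome biogenesis factors described here are 38 genes named by symbol, whose products work on ribosomal RNA or on precursors of the ribosomal subunits. All 38 symbols were listed among the 23284 of a first experiment and among the 12421 of a later knockout experiment. All 38 also passed the filter on low values in both (a mean of at least 1), which left 9464 and 12254 genes for testing. None stood at 0 in a library of the first experiment, and none stood at the lowest value of the knockout experiment. The genes fall into 7 groups by role: box C/D and box H/ACA small nucleolar ribonucleoproteins, nucleolar chaperones and scaffold proteins, the small-subunit processome, late 40S precursor factors, the PeBoW complex and other 60S assembly factors.

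The values are levels of polyadenylated RNA in the polysome fractions of HEK293, a human embryonic kidney line, in 12 libraries that form 6 groups of 2. Cells were given 5 ug of an empty plasmid (vector) or of one encoding STING, an adaptor protein that relays the sensing of cytosolic DNA, and were lysed 24 h later after treatment with cycloheximide, an inhibitor of elongation that holds ribosomes on mRNA. In the first experiment HEK293 cells received vector or STING. In the knockout experiment wild-type cells and cells labelled PERKKO, a knockout of the eIF2alpha kinase PERK (EIF2AK3), each received vector or STING. STING was thus made from a plasmid in every STING group, and the labels do not say how the knockout was made or whether its cells are 1 clone. The title of the series names a cGAS-STING-PERK pathway acting on translation, and polysome fractions of these cells address it. Total RNA was not analysed here, so a change in the amount of an mRNA and a change in its loading with ribosomes cannot be told apart. Nothing in the labels says that the libraries of a group came from separate cultures. The p-values therefore rest on the spread within pairs of libraries, and that spread may be technical.

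Ribosomes are assembled in the nucleolus around ribosomal RNA made by RNA polymerase I. Box C/D and box H/ACA particles modify that RNA at sites chosen by their guide RNAs, the small-subunit processome folds and cuts the precursor of the small subunit, and a sequence of assembly factors, the PeBoW complex among them, matures the large subunit. The genes of these factors are known as a set of growth-related genes, many of them targets of the transcription factor MYC, which binds with its partner MAX to the E-box CACGTG.

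The STING transcript, listed as TMEM173, stood at 14.9 and 13.8 FPKM (a fragment count scaled by transcript length and library depth) in the vector libraries of the first experiment and at 65157 and 69253 in its STING libraries. In the knockout experiment the STING libraries held 41812 and 40660 in wild-type cells but 10512 and 7338 in PERK knockout cells, so every knockout comparison with STING also compares unequal STING levels (log2 change -2.23, SE 0.34, limma adjusted p = 0.0320). EIF2AK3 stood at the lowest listed value in 7 of 8 knockout-experiment libraries, wild-type ones included, and cannot check the knockout label. Of 8 marker genes of the HEK293 line, 5 were above 1 in every library of each experiment (SIX2, VIM, KRT8, KRT18 and NEFL), while NEFM stood at 0 and PAX2 and LHX1 at or under 0.195 FPKM throughout the first experiment. PTPRC, CD3E, HBB, DCN and LUM, markers of blood cells and fibroblasts, stood at 0 in all 4 libraries of the first experiment. Counts were not used here and the depth is unknown, so no counting error is given.

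To show the promoters of the genes that passed a test below, the stretch from 70 bases before to 30 bases after the RefSeq transcription start is printed for all 5 of them and for GNL2 and WDR43, which carry the E-box nearest after the start. The sequences are from the RefSeq promoter table of build GRCh38.p14, are written 5′ to 3′ in the direction of transcription, and have each E-box in capitals. FBL is at chr19:39846350-39846449, minus strand. PES1 is at chr22:30591881-30591980, minus strand. NOP10 is at chr15:34343107-34343206, minus strand. GNL2 is at chr1:37595908-37596007, minus strand. WDR43 is at chr2:28894597-28894696, plus strand. NPM1, for which 1 of its 2 listed starts is shown, is at chr5:171387779-171387878, plus strand. NHP2 is at chr5:178153856-178153955, minus strand. Each stretch spans the end of the promoter and the start of the first exon.
FBL: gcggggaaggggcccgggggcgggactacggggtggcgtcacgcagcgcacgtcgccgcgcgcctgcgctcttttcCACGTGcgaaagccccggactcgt
PES1: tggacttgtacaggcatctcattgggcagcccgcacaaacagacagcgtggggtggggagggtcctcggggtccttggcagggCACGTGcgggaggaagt
NOP10: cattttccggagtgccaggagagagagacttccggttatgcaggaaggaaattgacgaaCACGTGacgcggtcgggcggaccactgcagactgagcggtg
GNL2: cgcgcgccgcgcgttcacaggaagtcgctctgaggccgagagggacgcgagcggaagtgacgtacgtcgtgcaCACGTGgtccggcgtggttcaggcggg
WDR43: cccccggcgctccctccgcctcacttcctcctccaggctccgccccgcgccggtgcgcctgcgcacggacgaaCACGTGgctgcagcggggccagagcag
NPM1: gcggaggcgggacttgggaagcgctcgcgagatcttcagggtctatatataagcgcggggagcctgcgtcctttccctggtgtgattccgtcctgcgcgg
NHP2: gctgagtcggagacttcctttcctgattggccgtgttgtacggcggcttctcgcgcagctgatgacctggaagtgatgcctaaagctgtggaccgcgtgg

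The E-box stands just past the start in FBL (first base 7 bases after it), PES1 (14), GNL2 (4) and WDR43 (4), and 11 bases before the start in NOP10, which holds another at 170 bases before it. The stretches of NPM1 and NHP2 hold none. Over the full windows of 300 bases (250 before to 50 after the start), 32 of the 38 genes had an entry. NOP58, NOLC1, RRP12, BOP1, RRP1B and RRS1 had none. CACGTG, which reads the same on both strands, was found in 15 of the 32 (46.9%), against 10.9% of 15843 protein-coding genes and 13.5% of the 6584 genes that were tested in the first experiment and had an entry. The 15 were FBL, NOP10, GAR1, NOP14, RRP9, IMP4, WDR43, BYSL, LTV1, PES1, NOP2, GNL2, GNL3, MRTO4 and EBNA1BP2. Of their 18 matches, 15 lay within 100 bases of the start, and 13 (72.2%) lay after it, against 206 of 2077 matches (9.92%) over all protein-coding entries. CCGGAAGT, a sequence of ETS factors, searched on both strands and unable by its letters to overlap the E-box, was found in 7 of the 32 (21.9%) against 6.97% of the protein-coding genes and 11.5% of those tested. These are matches of letters, not shown to be bound in these cells.

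**Figure D1:**
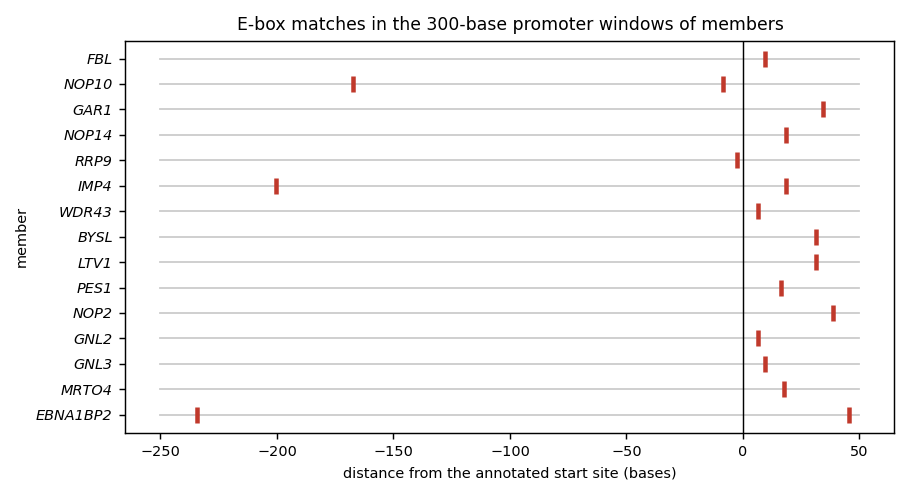
Places of the 18 CACGTG matches in the promoter windows of the 15 genes that hold one, as distance in bases from the transcription start, by gene. Of the 18 matches, 13 lie after the start, and those of GNL2, WDR43 and FBL lie 4, 4 and 7 bases past it.

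In vector-treated cells of the first experiment the 38 genes ranged from NHP2, a core protein of box H/ACA particles, at 1616 and 1522 FPKM, to RRP1B, a nucleolar partner of protein phosphatases, at 1.11 and 0.775. FPKM is scaled to transcript length, so levels may be set beside each other within a table. After NHP2 came its partner NOP10 at 694 and 546, then NPM1, a histone and ribosome chaperone, at 308 and 311, and IMP3, a processome protein that binds the U3 RNA, at 239.5 and 271. NOP16, a 60S factor, at 205 and 210.2 and the methyltransferase FBL at 199 and 166 came next. None of these 6 overlapped the next in order. The lowest after RRP1B were the GTPase GNL2 at 1.04 and 1.87 and the particle chaperone NOLC1 at 1.53 and 2.87, and each overlapped the next in order. In the knockout experiment NHP2 was again highest, at 2354 and 1659 FPKM in wild-type vector libraries, and RRP12 lowest by its mean, at 5.11 and 4.64.

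With STING in the first experiment, FBL, NPM1 and PES1 rose while NHP2 and NOP10 fell in the polysome fraction. The other 33 genes did not pass the test (limma on log2(FPKM + 1), two-sided, Benjamini-Hochberg adjusted p under 0.05 over all genes). Higher were thus 3 of 38, where 2.51% of all tested genes were called higher, and lower were 2 of 38, where 9.29% were called lower. Without the threshold, 27 of the 38 changes were above 0, as were 46.0% of all genes, and 11 were below 0, as were 54.0%. At an unadjusted p under 0.05, 10 were higher and 5 lower, against 8.82% and 18.9% of all genes. The median of the 38 was 0.24 on the log2(FPKM + 1) scale, against -0.05 over all 9464 genes. Libraries of the 2 groups did not overlap for 19 genes that were higher with STING (24.2% of all genes) and for 7 that were lower (32.8% of all genes). After median-of-ratios scaling the split of called genes was 2 higher (NPM1 and PES1) and 0 lower, where 3.03% and 7.34% of all genes were called. After quantile normalization it was 7 higher and 0 lower, where 3.66% and 4.55% were.

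In what follows a pair of values gives libraries 1 and 2 of a group, and vector is set against STING. The box C/D proteins carry ribose methylation of ribosomal RNA. FBL, the methyltransferase of the particle, measured 199 and 166 FPKM with vector, against 256 and 253 with STING (log2 change 0.48, SE 0.12, limma adjusted p = 0.0420). Both STING libraries lay above both vector libraries. NOP58, a scaffold protein of the particle, stood at 6.98 and 7.52 with vector and 9.39 and 11.2 with STING, and its partner NOP56 at 83.2 and 97.0 against 74.8 and 68.6. These scaffold partners thus lay on opposite sides, each without overlap, and neither passed the test.

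Of the box H/ACA proteins, which carry pseudouridylation, the small pair NHP2 and NOP10 fell. NHP2 stood at 1616 and 1522 FPKM with vector and 1155 and 1167 with STING (log2 change -0.43, SE 0.096, limma adjusted p = 0.0257). NOP10 stood at 694 and 546 against 383 and 359 (log2 change -0.73, SE 0.13, limma adjusted p = 0.0127). Both genes were lower in both STING libraries. The catalytic subunit DKC1 (dyskerin) lay the other way, at 13.3 and 12.4 with vector and 20.3 and 18.5 with STING, with no overlap and without passing the test. GAR1, the fourth protein of the particle, overlapped at 22.8 and 16.4 against 30.1 and 18.9. On the annotation of GENCODE 29, 27.4% of the exon bases of NHP2 are shared with RMND5B on the opposite strand. The counting is not stated to use strand, so reads of the pair cannot be told apart there. Of the 38 genes, 9 share over 20% of their exon bases with other entries. The largest shares are those of PPAN (59.8%), IMP3 (59.3%), NOP2 (54.4%) and EMG1 (53.1%). After quantile normalization the change of NHP2 was 0.035, on the other side of 0, and that of NOP10 was -0.27 (limma adjusted p = 0.281).

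Quantile normalization also moved FBL to 0.88 and NPM1 to 0.90, both still past the test. All 4 nucleolar chaperones and scaffold proteins had a change above 0, with a median of 0.56 on the log2 scale. NPM1 stood at 308 and 311 FPKM with vector and 439 and 419.9 with STING (log2 change 0.47, SE 0.099, limma adjusted p = 0.0222), and both STING libraries were higher. GENCODE 29 names pseudogenes after 10 of the 38 genes, 45 of them after NPM1, so its reads may be split among copies. NCL (nucleolin) stood at 9.79 and 11.3 against 18.8 and 15.3, and NOLC1 at 1.53 and 2.87 against 5.14 and 3.29. Neither overlapped and neither passed the test, and NPM3, a relative of NPM1, overlapped at 96.0 and 72.2 against 91.2 and 83.0.

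Among factors of the small subunit no gene passed. The 6 processome genes split 3 above and 3 below 0. WDR43, a UTP protein, stood at 17.1 and 14.6 with vector and 27.0 and 17.8 with STING, and EMG1, a methyltransferase, at 124 and 151 against 104 and 101. These were the processome genes without overlap, WDR43 higher and EMG1 lower. RRP9, a U3 protein, had means of 82.1 against 66.2, NOP14 2.83 against 3.60, IMP3 255 against 260.3, and IMP4 92.6 against 85.3. Of the late 40S factors, NOB1, the endonuclease of the last cut, stood at 56.7 and 68.4 against 76.1 and 89.7, higher without overlap. TSR1, a factor bound to late precursors, was lower without overlap by a small step, at 7.16 and 7.15 against 7.07 and 6.22. LTV1, an adaptor of the same precursor, had means of 6.10 against 5.95, BYSL 23.3 against 27.1, and RRP12 2.61 against 2.79.

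The PeBoW complex (PES1, BOP1 and WDR12) is needed to process the precursor of the large-subunit RNA. PES1 stood at 9.50 and 11.4 FPKM with vector and 16.8 and 19.2 with STING (log2 change 0.73, SE 0.19, limma adjusted p = 0.0477), and both STING libraries were higher. Its partners did not pass: BOP1 overlapped at 13.7 and 21.2 against 14.6 and 19.2, and WDR12 stood at 7.57 and 7.89 against 10.1 and 8.24.

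Of the other 13 factors of the large subunit, 11 had a change above 0 and none passed the test. The largest was that of RRS1, which helps load the 5S particle, at 3.81 and 5.04 with vector and 6.49 and 8.60 with STING. BRIX1, an assembly factor of early 60S precursors, stood at 12.8 and 23.9 against 26.2 and 25.7, and vector library 1 lay far below the other 3. GNL3 (nucleostemin) stood at 27.9 and 32.8 against 43.9 and 40.1, WDR74 at 73.8 and 88.9 against 96.2 and 116, and the methyltransferase NOP2 at 3.96 and 4.12 against 5.65 and 6.44. RRP1, RRP1B, NIP7 and GNL2 were also higher without overlap, with means from 7.02 to 9.46, 0.944 to 1.84, 18.0 to 21.4 and 1.45 to 2.12. The 2 genes on the other side were EBNA1BP2 at 99.6 and 112 against 84.8 and 81.4, and MRTO4, a relative of a stalk protein, at 59.7 and 66.2 against 45.7 and 53.9, both without overlap. NOP16 had means of 208 against 213. PPAN differed most between vector libraries, at 3.94 and 17.2, and stood at 6.73 and 12.6 with STING. On GENCODE 29 it shares 59.8% of its exon bases with other entries, mostly the readthrough gene PPAN-P2RY11, which was listed at no more than 0.147 FPKM.

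**Figure D2:**
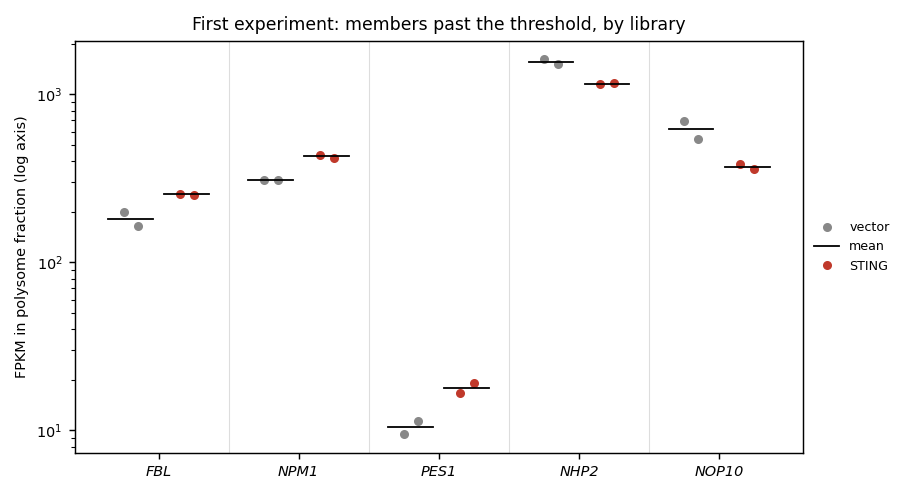
FPKM in each library of the first experiment for the 5 genes that passed the test, vector against STING, with points for libraries and bars for group means. FBL, NPM1 and PES1 are higher and NHP2 and NOP10 lower in both STING libraries.

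The 5 calls rest on 2 libraries in each group. A fit without 1 library leaves 1 in a group, so only changes are given for such fits. Each of the 5 genes kept its sign in them, and the median of the 38 ranged from 0.16 to 0.35. None of the 38 passed without the trend and robust steps of limma, where 0.18% of all genes did, against 11.8% in the main fit.

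In wild-type cells of the knockout experiment, 37 of the 38 genes stood below their vector level with STING, none of them past the test. The exception was NOP10, at 585 and 570.3 FPKM with vector and 577 and 586 with STING. Of all 12254 genes, 0.00816% were called (1 gene, TMEM173), 80.1% had a change below 0 and 19.9% one above 0. The median of the 38 was -0.44 and that of all genes -0.27, so most of the table was lower with STING. At an unadjusted p under 0.05, 7 of the 38 were lower and 0 higher, against 12.4% and 0.441% of all genes. Libraries did not overlap for 25 of the 38, all lower, as for 52.3% of all genes, and 0 were higher without overlap, against 3.31%. Median-of-ratios scaling moved the median of all genes from -0.27 to 0.05. On that scale 18 of the 38 were above 0 and 20 below, with a median of -0.06.

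The 3 largest changes in wild-type cells were those of NCL, GNL2 and RRP9. NCL stood at 73.5 and 105 FPKM with vector and 40.7 and 49.6 with STING (log2 change -0.95, SE 0.39, limma adjusted p = 0.387). GNL2, a GTPase of the large-subunit precursor, stood at 10.4 and 13.8 against 4.79 and 7.10 (log2 change -0.92, SE 0.49, limma adjusted p = 0.420). RRP9 stood at 52.0 and 59.6 against 31.0 and 29.4 (log2 change -0.86, SE 0.20, limma adjusted p = 0.384). All 3 were lower in both STING libraries. The genes called in the first experiment stood here, without passing, at 287 and 284 against 223 and 221 for FBL and 33.6 and 30.6 against 25.6 and 25.1 for PES1. For NPM1 they were 488 and 784 with vector and 422 and 434 with STING, and for NHP2 2354 and 1659 against 1865 and 1586. NHP2 and NOP10 overlapped, and the other 3 did not.

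By group, the median change in wild-type cells was -0.61 for the chaperones and scaffold proteins, -0.58 for the PeBoW complex, -0.57 for the other 60S factors and -0.41 for box H/ACA. It was -0.32 for the processome, -0.31 for box C/D and -0.30 for the late 40S factors. Against these stand -0.27 for all genes and -0.37 for all genes with a mean of at least 5. Within PeBoW, BOP1 stood at 24.7 and 24.3 against 13.7 and 18.7, and WDR12 at 8.59 and 11.7 against 4.80 and 6.20, both lower without overlap. Among 60S factors NOP2 stood at 33.4 and 35.8 against 20.0 and 23.6, MRTO4 at 53.8 and 57.4 against 36.4 and 32.4, and EBNA1BP2 at 87.4 and 114 against 59.7 and 61.3. In each of these 3 both STING libraries lay below both vector libraries. BRIX1 at 45.0 and 58.9 against 46.1 and 48.6 and WDR74 at 62.9 and 61.9 against 63.1 and 53.0 overlapped. Of box H/ACA, GAR1 stood at 33.1 and 34.2 against 20.9 and 22.4 and DKC1 at 42.7 and 78.1 against 39.2 and 34.3, where 1 vector library lay far above the other 3. NOLC1 stood at 13.2 and 19.4 against 9.06 and 10.2.

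**Figure D3:**
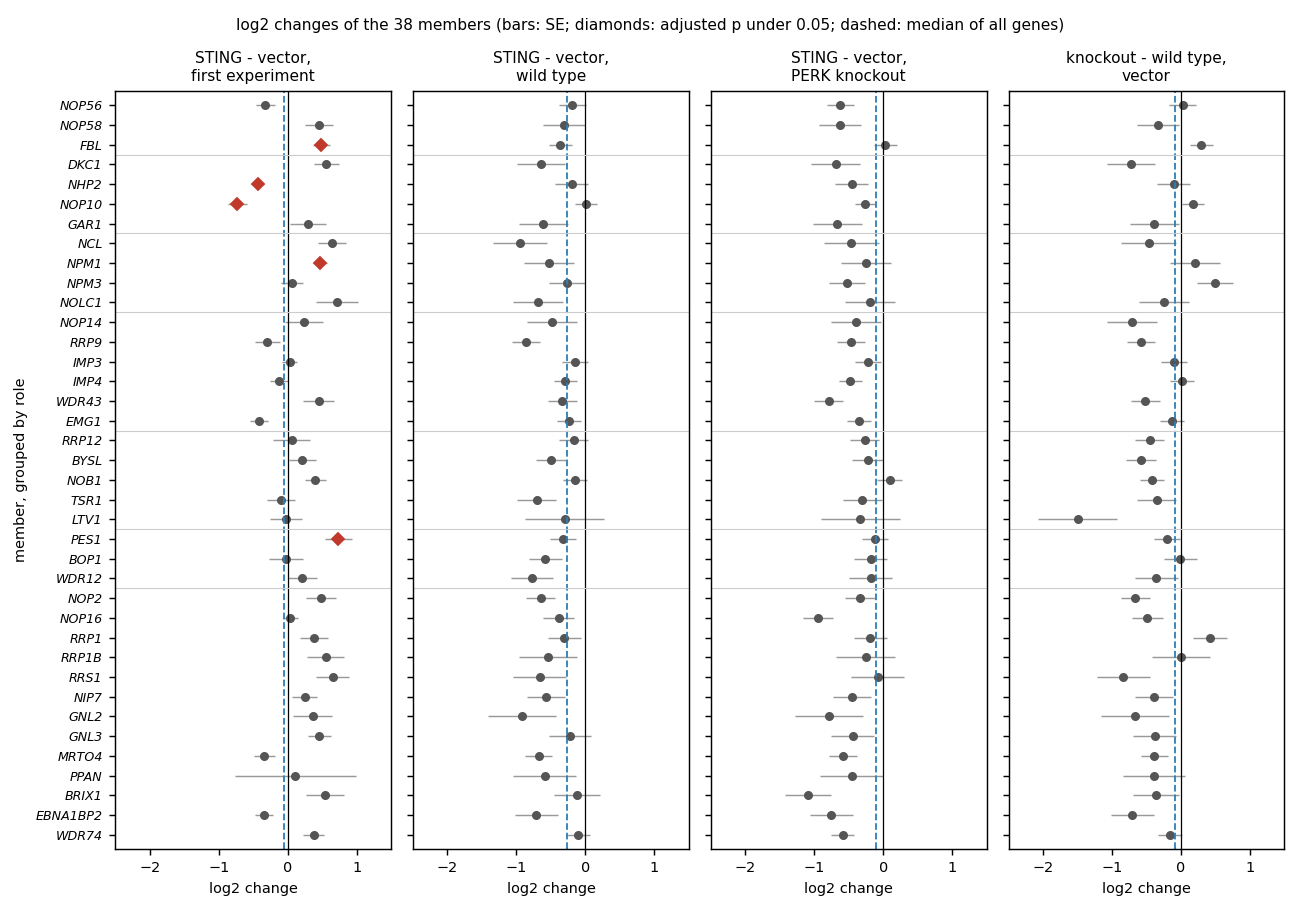
Log2 change of each of the 38 genes, by role group, on the log2(FPKM + 1) scale in 4 comparisons: the STING response of the first experiment, of wild-type cells and of PERK knockout cells, and the genotype difference with vector. Of the 38 changes, 27 lie above 0 in the first experiment, and 37 and 36 lie below 0 with STING in wild-type and knockout cells.

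In PERK knockout cells 36 of the 38 genes had a change below 0 with STING, and none passed the test (0.00816% of all genes did, again TMEM173 alone). The exceptions were FBL and NOB1. The median was -0.42, against -0.11 for all genes, of which 65.7% lay below 0. With a mean of at least 5 it was -0.45 for 36 of the 38 and -0.19 for all genes. At an unadjusted p under 0.05, 8 were lower and 0 higher, against 6.64% and 1.06% of all genes. Libraries did not overlap for 17 of the 38, all lower, against 21.9% of all genes, and 0 were higher without overlap, against 5.66%. After median-of-ratios scaling, which moved the median of all genes to 0.04, 34 of the 38 were below 0, with a median of -0.25. After quantile normalization, with a median of 0.0 for all genes, 29 were below 0 and 9 above, with a median of -0.22.

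The largest changes with STING in the knockout cells were those of BRIX1, NOP16 and WDR43. BRIX1 stood at 31.0 and 51.1 FPKM with vector and 13.4 and 24.5 with STING (log2 change -1.09, SE 0.33, limma adjusted p = 0.515). NOP16 stood at 137 and 181 against 76.9 and 86.1 (log2 change -0.94, SE 0.22, limma adjusted p = 0.469). WDR43 stood at 18.0 and 21.3 against 11.2 and 10.6 (log2 change -0.79, SE 0.21, limma adjusted p = 0.470). The STING libraries of all 3 lay below the vector libraries. EBNA1BP2 at 45.7 and 80.9 against 29.1 and 43.8, NOP58 at 37.7 and 60.9 against 26.2 and 36.1 and WDR74 at 58.4 and 53.0 against 37.8 and 35.5 were also lower without overlap. FBL overlapped at 346 and 356 against 319 and 404, as did NOB1 at 62.5 and 71.5 against 71.7 and 71.0. PES1 overlapped too, at 30.5 and 25.3 against 24.4 and 26.7. NCL, largest in wild-type cells, stood at 45.1 and 88.3 against 33.2 and 62.5 and overlapped.

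The knockout vector libraries were unequal: 31 of 38 were higher in library 2 than in library 1, with a median difference of 0.41 on the log2 scale. The median was 0.11 for all genes and 0.23 for those with a mean of at least 5, of which 68.8% were higher in library 2. In the wild-type vector libraries 28 of 38 were higher in library 2, with a median difference of 0.37. The median there was 0.08 for all genes and 0.13 for those with a mean of at least 5, of which 63.4% were higher in library 2. Without knockout vector library 2 the median response of the knockout cells was -0.24, with 11 of 38 above 0, and without library 1 it was -0.58. A fit with the replicate number as a block, given below, left the median response of the knockout cells at -0.42. Beyond these fits, the part of this spread in the results was not tested.

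The genes not yet given in the knockout experiment are described by group means, in the order wild-type vector, wild-type STING, knockout vector and knockout STING. In the small-subunit processome the means were 101, 82.4, 103 and 73.2 FPKM for IMP4, 173, 157, 164 and 138 for IMP3 and 89.2, 75.4, 81.6 and 63.2 for EMG1. NOP14 stood at 5.96, 3.90, 3.28 and 2.15. All 4 genes had their highest mean in a vector group. Of the late 40S factors RRP12 had means of 4.88, 4.23, 3.28 and 2.58, BYSL, needed for the small subunit, of 35.6, 24.8, 23.7 and 19.9, and TSR1 of 12.4, 7.15, 9.60 and 7.46. These 3 were highest with vector in wild-type cells. Of the large-subunit factors GNL3 had means of 88.8, 74.5, 69.3 and 49.2, NIP7 of 20.3, 13.2, 15.3 and 10.9, RRP1B of 7.06, 4.19, 6.85 and 5.52 and PPAN of 23.0, 15.8, 17.3 and 13.2. These too had their highest mean in wild-type cells with vector. NOP56 stood at 149, 129, 149.8 and 96.9, with its lowest mean in knockout cells with STING.

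**Figure D4:**
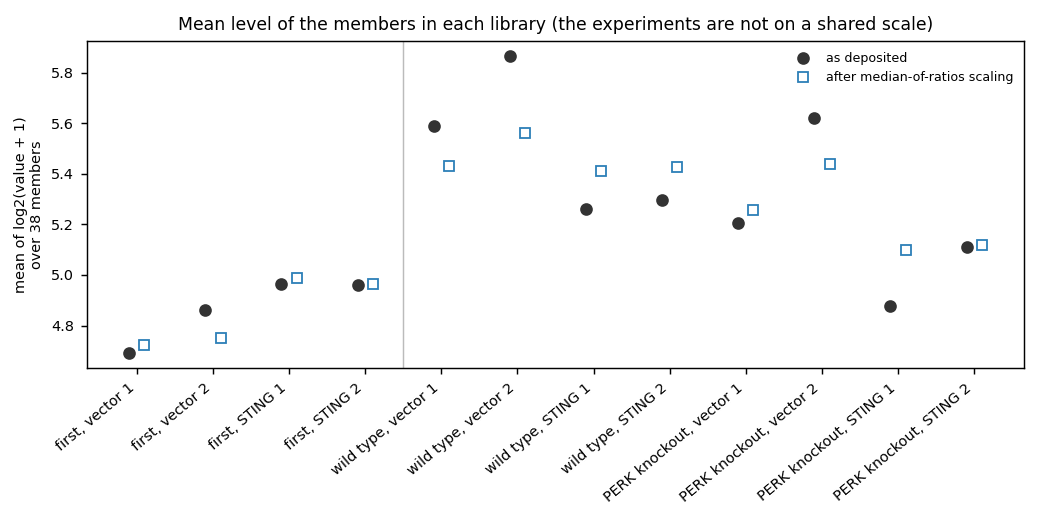
Mean of log2(value + 1) over the 38 genes in each of the 12 libraries, as deposited and after median-of-ratios scaling within each table. As deposited, the STING libraries lie above vector in the first experiment (4.96 and 4.96 against 4.69 and 4.86) and below it in wild-type cells (5.26 and 5.30 against 5.59 and 5.87).

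Between genotypes with vector alone, no gene passed (0.049% of all genes did, 0.0326% higher and 0.0163% lower), and 30 of the 38 lay below 0 in PERK knockout cells. The median was -0.37, against -0.09 for all genes, of which 60.6% were below 0 and 39.3% above. With a mean of at least 5 it was -0.36 for 36 of the 38 and -0.17 for all genes. At an unadjusted p under 0.05, 6 were lower and 0 higher, against 7.99% and 4.38% of all genes. With median-of-ratios scaling, which moved the median of all genes to 0.05, 25 lay below 0 and the median was -0.20. Libraries did not overlap for 14 genes that were lower in knockout cells and for 4 that were higher, against 25.8% and 12.5% of all genes. Here wild type is set against knockout. LTV1, the adaptor of late 40S precursors, stood at 17.6 and 36.9 FPKM in wild-type and 4.07 and 16.4 in knockout cells (log2 change -1.50, SE 0.57, limma adjusted p = 0.356). RRS1 stood at 18.8 and 26.4 against 7.96 and 18.0 (log2 change -0.84, SE 0.38, limma adjusted p = 0.431), and DKC1 at 42.7 and 78.1 against 27.0 and 44.2 (log2 change -0.73, SE 0.35, limma adjusted p = 0.454). LTV1 and RRS1 did not overlap between genotypes but varied widely within the knockout group, and DKC1 overlapped. LTV1 shares 34.8% of its exon bases with other GENCODE 29 entries. The 4 genes that were higher in knockout cells were FBL at 287 and 284 against 346 and 356, RRP1 at 26.3 and 36.1 against 41.9 and 41.2, NPM3 at 127 and 90.7 against 175 and 131, and NOP10 at 585 and 570.3 against 691 and 614. The median without knockout vector library 1 was -0.15, and without library 2 it was -0.61.

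With STING in both genotypes, again no gene passed, while 0.547% of all genes were called lower and 1.21% higher in knockout cells (1.75% in all). Of the 38, 27 lay below 0, with a median of -0.27, against 0.02 for all genes, of which 43.3% were below 0 and 53.1% above. With a mean of at least 5 the median was -0.26 for 36 of the 38 and -0.0011 for all genes. At an unadjusted p under 0.05, 7 were lower and 1 higher, against 7.1% and 10.3%. Libraries did not overlap for 21 genes that were lower and for 3 that were higher, against 20.6% and 24.8% of all genes. LTV1 stood at 20.8 and 20.1 FPKM in wild-type and 5.14 and 8.05 in knockout cells (log2 change -1.53, SE 0.57, limma adjusted p = 0.229). BRIX1 stood at 46.1 and 48.6 against 13.4 and 24.5 (log2 change -1.33, SE 0.33, limma adjusted p = 0.101), and NOP16 at 199.9 and 143 against 76.9 and 86.1 (log2 change -1.05, SE 0.22, limma adjusted p = 0.0673). Knockout libraries were the lower in all 3. BRIX1, NOP16 and WDR43 (23.9 and 20.9 against 11.2 and 10.6) passed with a mean of at least 5, with median-of-ratios scaling and with quantile normalization, at limma adjusted p from 0.0241 to 0.0397, where 5.62%, 3.66% and 3.82% of all genes were called in either direction. FBL, at 223 and 221 against 319 and 404, RRP1, at 26.1 and 23.5 against 44.0 and 30.1, and NPM1, at 422 and 434 against 471 and 766, were the 3 genes on the higher side without overlap, of 11 with a change above 0. The STING transcript itself was lower in the knockout cells, and the part of that in these differences was not tested. This comparison, the vector comparison and the STING responses above share libraries, so they are not independent of each other.

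**Figure D5:**
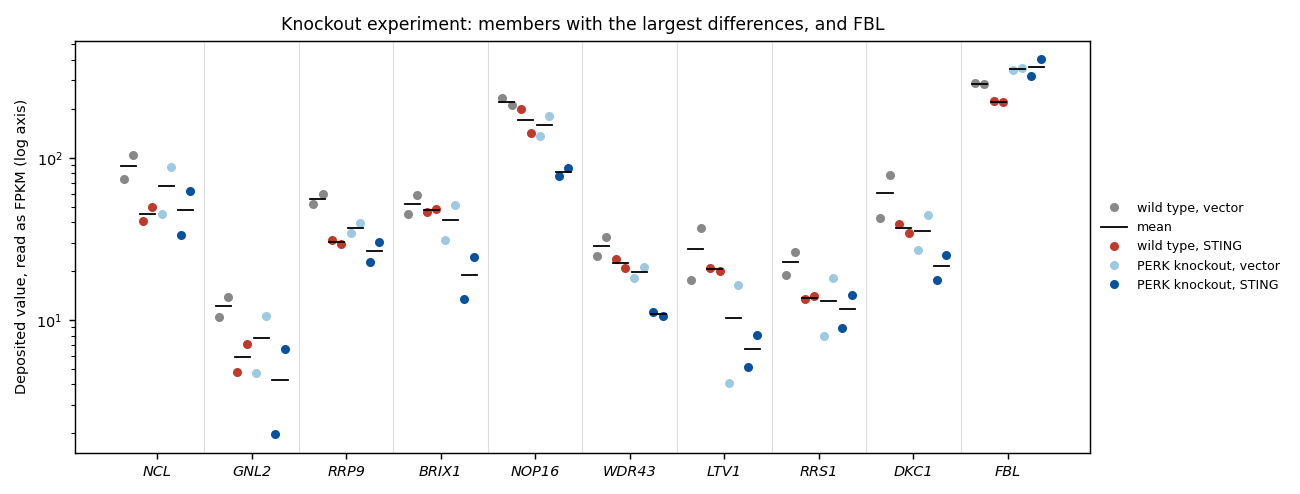
FPKM, on a log axis, in the 8 libraries of the knockout experiment for FBL and 9 genes with large differences, in 4 groups of 2 libraries with lines at group means. LTV1 lies lower in each of the 4 PERK knockout libraries than in any wild-type library, and FBL lies higher in knockout than in wild-type cells with either plasmid.

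For the difference of the STING response between genotypes, none of the 38 passed the test, and none of all 12254 genes did (0.0%). That does not show that responses were equal: TMEM173 itself, with a difference of -2.37 (SE 0.48), had a limma adjusted p of 0.966. At an unadjusted p under 0.05, limma found 0 of the 38 and 3.04% of all genes higher and 0.832% lower. The responses differed most for BRIX1 (log2 change -0.97, SE 0.47, limma adjusted p = 0.966), WDR12 (log2 change 0.59, SE 0.44, limma adjusted p = 0.966) and RRS1 (log2 change 0.58, SE 0.54, limma adjusted p = 0.966). BRIX1 thus had a response of -1.09 in knockout and -0.12 in wild-type cells, WDR12 of -0.18 and -0.77, and RRS1 of -0.08 and -0.66. With 20 differences above 0 and 18 below, against 66.6% and 33.4% of all genes, the 38 had a median of 0.09 against 0.13 for all genes, and the sign of that median turned with median-of-ratios scaling, to -0.094.

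MYC, whose product binds the E-box, rose in the first experiment, from 4.10 and 7.15 FPKM with vector to 16.0 and 15.2 with STING (log2 change 1.36, SE 0.26, limma adjusted p = 0.0145). It did not pass in the knockout experiment, at 16.7 and 20.3 with vector and 22.6 and 18.9 with STING in wild-type cells, and 23.9 and 43.8, then 23.5 and 40.6, in knockout cells. MAX was lower in knockout than in wild-type cells with STING, at 37.8 and 35.8 against 69.4 and 80.3 (log2 change -1.002, SE 0.19, limma adjusted p = 0.0487). In the first experiment the 15 genes with an E-box in the promoter window and the 17 without it had like medians: the 15 with one had a median change of 0.24 and the 17 of 0.21. In wild-type cells the medians were -0.49 and -0.31, and in knockout cells -0.44 and -0.46.

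Of 111 tested genes on 7 lists of other ribosome biogenesis genes and MYC relatives, 4 rose and 7 fell with STING in the first experiment, where 11.8% of all genes were called in either direction, and their median was 0.17. RNA polymerase I transcription had 1 higher and 0 lower of 13. It was TAF1D, a subunit of the promoter factor SL1, at 9.56 and 6.55 with vector and 14.7 and 15.5 with STING (log2 change 0.85, SE 0.22, limma adjusted p = 0.0473). Of 8 snoRNP assembly genes 1 rose, the ATPase RUVBL1, from 35.5 and 41.9 to 66.8 and 67.1 (log2 change 0.78, SE 0.15, limma adjusted p = 0.0151). Of 15 exosome and related genes, the exonuclease XRN2 rose from 5.22 and 7.42 to 11.6 and 12.6 (log2 change 0.85, SE 0.22, limma adjusted p = 0.0470), and EXOSC5 fell.

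Other processome genes had 2 lower of 32, RRP7A and NHP2L1. RRP7A, which has a pseudogene copy, went from 105 and 113 to 47.4 and 50.4 (log2 change -1.13, SE 0.13, limma adjusted p = 0.00297). Of 6 other late 40S genes NOL12 fell, from 56.5 and 55.6 to 38.6 and 38.5 (log2 change -0.53, SE 0.14, limma adjusted p = 0.0475). Of 31 other 60S genes WDR18 fell, from 243 and 317 to 151 and 170.2 (log2 change -0.78, SE 0.15, limma adjusted p = 0.0147). The MYC family had MYC higher and its antagonists MXD3 and MXD4 lower, of 6. In the knockout experiment none of 123 tested genes of these lists passed in wild-type or knockout cells with STING, or between genotypes with vector. Their medians were -0.38, -0.29 and -0.33, against -0.27, -0.11 and -0.09 for all genes. For all genes with a mean of at least 5 the medians were -0.37, -0.19 and -0.17. Between genotypes with STING, MAX was the 1 gene that passed.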

How the data were processed

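Polysome-fraction RNA of 12 HEK293 libraries was copied and amplified by Smart-seq2 after polyA capture, per the labels' protocols. The authors deposited FPKM values, and the submitters' processing notes list TopHat2 2.1.1, Cufflinks 2.2.1 and the build hg19. No unit is named in the table of the knockout experiment, which was read as deposited FPKM with values under 1 set to 1. Annotation, filters and strand use: not given in the sources used here. Counts were not used here, so depth is unknown.

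Each table was tested on its own in R 4.3.3 with limma 3.58.1, using log2(FPKM + 1), a pseudocount of 1. Genes were kept where their mean was at least 1 and their values differed. Group means were fitted with trend and robust eBayes, two-sided, with Benjamini-Hochberg adjustment at 0.05 over all genes, after a check on simulated data. Fold changes on this scale understate those of low genes. The 38 genes, their groups and the other lists were chosen with earlier results of these data known. Tests are named for genes that passed, or else for the 3 largest changes of a comparison. Alternatives were pseudocounts of 0.1 and 5, no filter, a mean of at least 5, 2 scalings, plain eBayes, a replicate block and leaving out libraries. ERCC spike-ins were added in the knockout experiment, per the labels' protocols, but the table lists no spike-in entry, so that scaling was not run. Promoters came from RefSeq (GRCh38.p14), exon overlaps from GENCODE 29. Python 3.11.15 and pandas 2.3.3 were used.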

Additional observations from a re-analysis of the deposited data

Results flagged for a closer look

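Some genes lay higher in both STING libraries of the first experiment and lower in both STING libraries of a group of the knockout experiment, on the log2(FPKM + 1) scale. The difference between experiments was not tested, since the tables were made separately. In wild-type cells they were 13 genes, given with the change there and then that of the first experiment: FBL (-0.36, against 0.48), DKC1 (-0.64, against 0.56), NCL (-0.95, against 0.64), NPM1 (-0.53, against 0.47), NOLC1 (-0.68, against 0.71), WDR43 (-0.34, against 0.45), PES1 (-0.33, against 0.73), WDR12 (-0.77, against 0.21), NOP2 (-0.65, against 0.48), RRP1 (-0.31, against 0.38), RRS1 (-0.66, against 0.65), NIP7 (-0.57, against 0.24), GNL2 (-0.92, against 0.36). Among the 8808 genes tested in both experiments, 14.0% were opposite in this way. After median-of-ratios scaling 6 of the 13 still were (NCL, NOLC1, WDR12, NOP2, RRS1 and GNL2). The share of all genes on that scale was not worked out, so these 6 have no background.

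In PERK knockout cells they were 6 genes: NOP58 (-0.62, against 0.45), DKC1 (-0.69, against 0.56), WDR43 (-0.79, against 0.45), NOP2 (-0.34, against 0.48), BRIX1 (-1.09, against 0.54), WDR74 (-0.59, against 0.38). Of all genes 6.58% were opposite there. After scaling 5 of the 6 still were, all but NOP2, again without a share of all genes on that scale. The vector and STING groups of each experiment have 2 libraries, and the cause was not tested.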

How the results depend on the processing

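The number of the 38 genes called with STING in the first experiment was 5. It was 1 with no filter, where 3.63% of all genes were called, against 11.8% in the main fit. With median-of-ratios scaling it was 2, where 10.4% were called, and without trend and robust estimation 0, where 0.18% were. For the whole set, the median there became 0.38 with quantile normalization and 0.16 to 0.35 without single libraries. The sign of NHP2 turned with quantile normalization (0.035). In wild-type cells the median was -0.062 with median-of-ratios scaling, -0.11 with quantile normalization and -0.61 to -0.37 without single libraries. Without single libraries it ranged from -0.58 to -0.24 in knockout cells, -0.61 to -0.15 between genotypes with vector and -0.39 to -0.18 with STING. With quantile normalization these medians were -0.22, -0.22 and -0.30. With STING, 3 genes were called between genotypes with a mean of at least 5, 3 with median-of-ratios scaling and 4 with quantile normalization, against 0, where 5.62%, 3.66% and 3.82% of all genes were called, against 1.75%. The median difference of responses turned to -0.094 and -0.11 with the 2 scalings and ranged from -0.13 to 0.32 without single libraries. The cause of these shifts was not tested.

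With the replicate number as a block, 6 genes were called in the first experiment (EMG1 lower in addition), where 16.8% of all genes were. Between genotypes with STING 5 were (FBL higher, and WDR43, NOP16, BRIX1 and WDR74 lower), where 6.94% of all genes were. Deviations of same-numbered libraries correlated across genes at over 0.1 in 5 of 6 pairs of groups of the knockout experiment (0.042 to 0.53) and at 0.074 in the first. The labels tie the numbers to no shared source, and not every pair was over 0.1, so the numbers were not taken as pairs. Of 300 alternative values for named genes, 1 turned its sign, that of NHP2. Each of the 5 genes called in the first experiment fell short of the threshold in some alternatives. The side of the threshold is not pooled over the 300, since many are values of genes that did not pass in the main fit. Unknown depth and 2 libraries a group limit all of these.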

Other observations

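Small nucleolar RNAs lie in introns of several of these genes, and 22 entries inside 8 of them by the RefSeq coordinates were listed in the first experiment. Of these, 17 were listed at 0 in all 4 libraries and 5 were above 1 FPKM in some library. SNORD70, in NOP58, stood at 286 and 315 with vector and at 0 with STING. SNORD86, in NOP56, stood at 839 in vector library 2 and 1045 in STING library 2, and near 0 in library 1 of both groups. SNORD11 in NOP58 (723), SNORA51 in NOP56 (97.3) and SNORD69 in GNL3 (637) were above 0 in 1 vector library each. Polyadenylated RNA was captured, and the values, which are large for short entries from few fragments, were not tested.

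Transcript length (the median over protein-coding transcripts of GENCODE 29) was set beside the changes as a description. Across the 38 genes, which share libraries and so are not independent, Spearman's rho was 0.16 in the first experiment, -0.17 in wild-type and 0.33 in knockout cells, against 0.17, 0.041 and 0.12 across all genes. The 16 genes under 1500 bases had median changes of 0.18, -0.38 and -0.46 in these comparisons, and the 22 longer ones 0.30, -0.50 and -0.32.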
